A study of Homo sapiens with 12 samples.

Results

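RNA that came through a Halo-tag purification when the tag carried no partner protein was compared with total RNA of the same kind of extract. The comparison used the 14109 genes, of 25369 in the deposited tables, that reached 10 normalized counts in no fewer than 3 of the 6 libraries concerned. A further 5530 genes were at 0 in all 6 libraries and 5730 were above 0 but under this filter. With 3 libraries per group a gene could pass through one group alone, and 24 did so with every Input library and no Pulldown library at 10 or more and 18 the other way round. For these low genes the choice is tied to the difference between the groups.

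The Halo tag is a modified bacterial enzyme that forms a covalent bond with a chloroalkane ligand, so a fusion protein and whatever is bound to it can be held on a resin and washed. Expressing the tag alone gives the background of such a purification, meaning RNA that stays with tag, resin or vessel without a protein of interest. Some RNA classes named below differ from ordinary messenger RNA, and whether these features bear on the values was not tested. Replication-dependent histone mRNAs end in a stem-loop in place of a poly(A) tail. Small nucleolar and small Cajal body RNAs (snoRNAs and scaRNAs) guide modification of ribosomal and spliceosomal RNA, and the RNAs of RNase MRP and RNase P are the RNA cores of enzymes that process ribosomal precursor and transfer RNA.

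All cells were HEK293T, a human line of embryonic kidney origin that is easily transfected and that the growth conditions call HEK293. The tag-alone cells received a plasmid for the Halo tag, and the other cells of the study a plasmid for a fusion of the tag with amino acids 196 to 346 of TNIP2, which is an adaptor of NF-kB signalling. Control Input is RNA from 100 µl of whole cell extract of tag-alone cells, Control Pulldown is RNA from 90 µl of material purified from them, and TNIP2 Input and TNIP2 Pulldown are the matching fractions with the TNIP2 fragment, with 3 libraries in each of the 4 groups. Ribosomal RNA had been depleted. The labels state neither the promoter of the plasmids nor whether replicates were separate transfections, and the p-values below then cover only variation among libraries, part or all of which could be technical. As in any bulk sample, fewer cells and less RNA per cell cannot be told apart, and normalized counts carry no information on the total amount of RNA recovered.

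Depth recovered from the deposited FPKM was 20749169, 13765240 and 16297619 reads in Control Input and 3584241, 6392356 and 4028817 in Control Pulldown, values that rest on a fitted step and are good to about 3 digits. A single read was worth 0.533 to 0.768 normalized counts in Input and 1.61 to 2.87 in Pulldown. Of the genes compared, 20 to 84 had under 10 reads in an Input library and 843 to 1648 in a Pulldown library, so low genes are known least well after purification. Markers of the line that were fixed as a list, among them VIM, were measured in 10 of 12 cases and summed to 8530 to 8882 normalized counts in Input and 7833 to 8740 in Pulldown. Blood markers (3 of 10 measured, CD3E and HBB at 0 throughout) summed to 52 to 61 and 36 to 63, and fibroblast and endothelial markers (4 of 10, CDH5 at 0 throughout) to 141 to 175 and 77 to 159. None of 6 liver markers passed the filter, which is what measured means here.

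For most genes the purified RNA followed the extract closely. The median log2 fold change of Control Pulldown over Control Input was -0.01 over all 14109 genes. Normalization scales the libraries to a common level, so a median near 0 is no measure of closeness by itself. It was 0.093 when centred on ribosomal protein genes. For 12498 genes (88.6%) the 95% confidence interval lay within a 2-fold change in either direction. For 9794 genes (69.4%) it lay within 1.5-fold. Pearson's r of log2 values across genes was 0.978 to 0.987 between Input and Pulldown libraries, 0.971 to 0.978 among Pulldown libraries and 0.989 to 0.993 among Input libraries. Purified libraries therefore correlated with extracts no less than with each other, though r was not taken at equal depth and Pulldown libraries held fewer reads.

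In limma's moderated test with Benjamini-Hochberg adjustment, 44 genes (0.312%) fell and 4 genes (0.0284%) rose at an adjusted p under 0.05. The 44 were 30 replication-dependent histone genes, 13 snoRNA, scaRNA, snRNA or other structured RNA genes, and PLCG2. Among the 13, SNORA12 and SNORA49 passed the filter through the extracts alone. Both had to lie below the extracts, so their calls are a description, and 46 of the 48 calls stand apart from this limit. The 4 that rose were LOC284801, GLTSCR2, C4orf48 and MIF. In each of the 48 the 3 Pulldown libraries lay entirely to one side of the 3 Input libraries, which was true of 1020 genes below (7.23%) and 837 above (5.93%) over all genes. At an unadjusted p under 0.05 there were 518 lower and 473 higher genes.

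The number of calls depended on how the spread was estimated. With a prior variance that does not follow the level of a gene, 5 genes were lower and 0 higher, with no filter on low values 4 and 0, and in a fit that takes in the TNIP2 libraries 20 and 0. RMRP, HIST1H4H and PLCG2 were called under all 21 alternatives that were run.

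**Figure D1:**
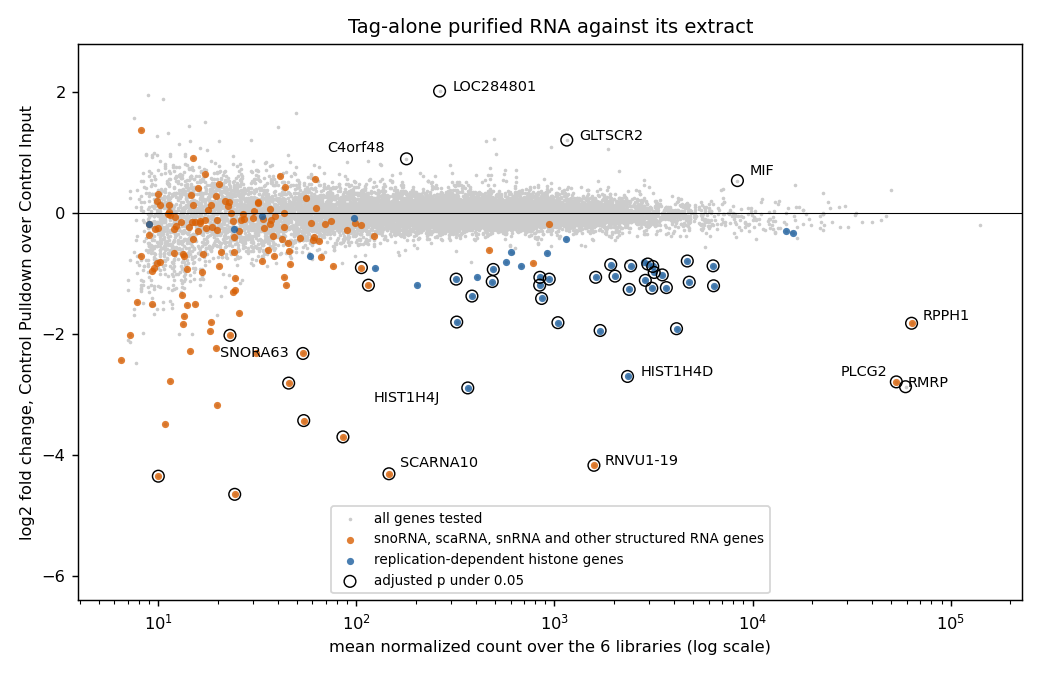
Each point is a gene, with its mean normalized count over the 6 tag-alone libraries on a log axis and its log2 fold change of Control Pulldown over Control Input. Histone genes (blue) and small structured RNA genes (orange) make up 43 of the 44 circled points below 0, and 4 circled genes lie above 0.

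The RNAs of 2 processing enzymes, which by FPKM stood highest of the genes tested in the extracts, both fell. RMRP, the RNA of RNase MRP, had 121167, 89229 and 69188 normalized counts in Control Input 1, 2 and 3 and 11713, 15365 and 12552 in Control Pulldown. Every purified library was well under every extract, and the extracts themselves differed more than the purified libraries did. The log2 fold change was -2.79 (SE 0.17, adjusted p = 1.3e-05 in limma), a 6.92-fold fall. Per length, RMRP had the highest FPKM of all genes in the extracts, at 30565 ± 8598 (SD, n = 3), and ranked 4 in the purified RNA at 4332 ± 627.

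RPPH1, the RNA of RNase P, fell less. Its values were 135033, 92506 and 71766 in Input and 28553, 27641 and 25614 in Pulldown, and the groups did not overlap (log2 fold change -1.82, SE 0.17, adjusted p = 3.8e-04). By FPKM it ranked 2 in extracts and 1 after purification, at 7029 ± 388. TERC, the template RNA of telomerase, had 1097, 975 and 910 in Input against 430, 662 and 624 in Pulldown, a log2 fold change of -0.82 that narrowly missed the threshold (adjusted p = 0.0512). It passed in 8 of the alternatives, so it lies at the edge of the call. BCYRN1, a short cytoplasmic RNA of neurons, had -0.73 (adjusted p = 0.56). The 4 measured genes of this class, of 10 in the table, had a median of -1.32. All 4 lay below the extracts in every Pulldown library (7.23% of all genes did).

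RMRP held 0.867% ± 0.217 (SD, n = 3) of all normalized counts in the extracts and 0.129% ± 0.0186 in the purified RNA. RPPH1 held 0.928% ± 0.27 and 0.266% ± 0.0135. These shares did not overlap, at the smallest p that an exact two-sided permutation test of 3 against 3 libraries allows, 0.10. The 85 cytosolic ribosomal protein genes of the table held 10.5% in both fractions (exact permutation p = 0.60); as a share of summed FPKM they were 2.46 percentage points higher in Pulldown.

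Among spliceosomal RNAs, 4 of 8 genes in the table were measured, 2 fell (0.312% of all genes did) and the median was -2.22. RNVU1-19, a variant of U1 RNA, which recognises the 5′ splice site, had 2820, 3108 and 2970 in Input and 355, 167 and 73 in Pulldown. The extracts were nearly equal while the purified libraries spread widely, and the log2 fold change was -4.17 (SE 0.39, adjusted p = 3.8e-04). RNU12, the U12 RNA of the minor spliceosome, had 37, 36 and 39 against 6, 10 and 10, a log2 fold change of -2.02 (adjusted p = 0.0197) that rests on few reads and lost its call when any one Input library was left out. RNU6ATAC (12, 12 and 10 against 0, 2 and 3, so in the comparison through the extracts alone; adjusted p = 0.32) and RNU11 (-0.40, adjusted p = 0.73), also of the minor spliceosome, did not pass.

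SCARNA10, a guide RNA of Cajal bodies, had 431, 236 and 171 in Input and 6, 16 and 18 in Pulldown. Its log2 fold change, the lowest of the 14 scaRNAs measured, was -4.31 (SE 0.40, adjusted p = 3.8e-04). SCARNA12 also fell, from 161 ± 37.2 to 69 ± 10.4 (log2 fold change -1.19, adjusted p = 0.0256), a call that ended without Control Input 1 or 2 or Control Pulldown 1 or 2. The class was not uniform. Its median was -1.23 with 13 of 14 below 0 (53.2% of all genes were), yet SCARNA2, the most abundant member named here, had 1385, 983 and 671 against 868, 1003 and 720 (log2 fold change -0.18), with overlapping groups. Of the 14, 2 passed the filter through the extracts alone, so they lie below 0 by selection and lower the median. Over all 14109 genes, 24 passed in this way.

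H/ACA snoRNAs direct pseudouridylation. Of 106 in the table, 44 were measured, 5 fell (0.312% of all genes did), 17 lay below in every Pulldown library (7.23% of all genes did), and the median log2 fold change was -0.44. Of the 44, 4 passed the filter through the extracts alone, so they are among the 17 by selection. Over all 14109 genes, 24 passed in this way, so the shares over all genes are not a like background. SNORA48 fell from 208, 155 and 107 to 14, 26 and 3 (log2 fold change -3.70, SE 0.55, adjusted p = 0.0092). SNORA63 fell from 126, 67 and 76 to 17, 26 and 10 (-2.32, adjusted p = 0.0107), and SNORA52 from 90, 83 and 61 to 14, 22 and 3 (-2.81, adjusted p = 0.0487), a call that held in only 8 of the 21 alternatives. All 3 were lower in each purified library by a wide margin, though every Pulldown value was 26 or less.

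SNORA12 had 68, 41 and 32 in Input and 0, 0 and 5 in Pulldown. That is 231 reads against 2, or 33.3-fold lower with an exact 95% interval of 9.11 to 277 from counting error alone. SNORA49 had 27, 16 and 17 against 0, 0 and 0, which is at least 8.56-fold lower when the purified group is set at 3 reads over its libraries. Both passed the filter through the extracts alone, so they could enter the comparison only by differing, and their values are given as a description. Without them the H/ACA genes that fell number 3, and placing SNORA49 at its bound left the class median at -0.44.

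The H/ACA count was sensitive to single libraries. It was 0 without Control Input 1, 1 without Control Input 2 and 3 without Control Input 3, and SNORA52 also lost its call without Control Pulldown 1. The class median relative to Input was -0.85, -0.52 and -0.22 in Control Pulldown 1, 2 and 3, and was -0.69 without Control Pulldown 3.

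Box C/D snoRNAs, which direct 2′-O-methylation, had values nearest to 0 among the small RNA classes. Of 72 measured, from 264 in the table, 2 fell (0.312% of all genes did) and the median was -0.16. In every Pulldown library 14 lay below the extracts (7.23% of all genes did) and 4 above (5.93% did). Among them, 1 of those below passed the filter through the extracts alone and 1 of those above through the purified RNA alone. SNORD97 had 118, 97 and 84 in Input and 11, 10 and 5 in Pulldown (log2 fold change -3.43, SE 0.32, adjusted p = 3.8e-04). SNORD17 had 157, 123 and 135 against 72, 75 and 73 (-0.90, adjusted p = 0.0452), and its call ended when any one of the 6 libraries was left out. The C/D median was -0.31 without Control Pulldown 3, -0.25 without Control Input 1 and -0.09 without Control Input 3.

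Many snoRNAs and scaRNAs are cut from introns of other genes, so the mature mRNA of the enclosing gene was set beside each. None of the 8 enclosing genes found passed the test. SCARNA10 lies in NCAPD2, a condensin subunit, whose log2 fold change was 0.02 (95% interval -0.23 to 0.28). SNORD97 lies in EIF4G2, a translation initiation factor, at -0.01 (-0.18 to 0.16), and SNORA12 in CWF19L1, at -0.00 (-0.22 to 0.21). SNORA63 lies in EIF4A2, an initiation helicase, at -0.11 (-0.28 to 0.06), and SNORA52 in RPLP2, a ribosomal stalk protein, at 0.40 (0.18 to 0.61; adjusted p = 0.23). The small RNA and the spliced mRNA of the same locus therefore took different values. Of 22 non-coding genes that host snoRNAs, among them ZFAS1 (-0.31) and SNHG9 (0.79), 0 passed, with a median of -0.01 that was 0.10 after centring on ribosomal protein genes.

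**Figure D2:**
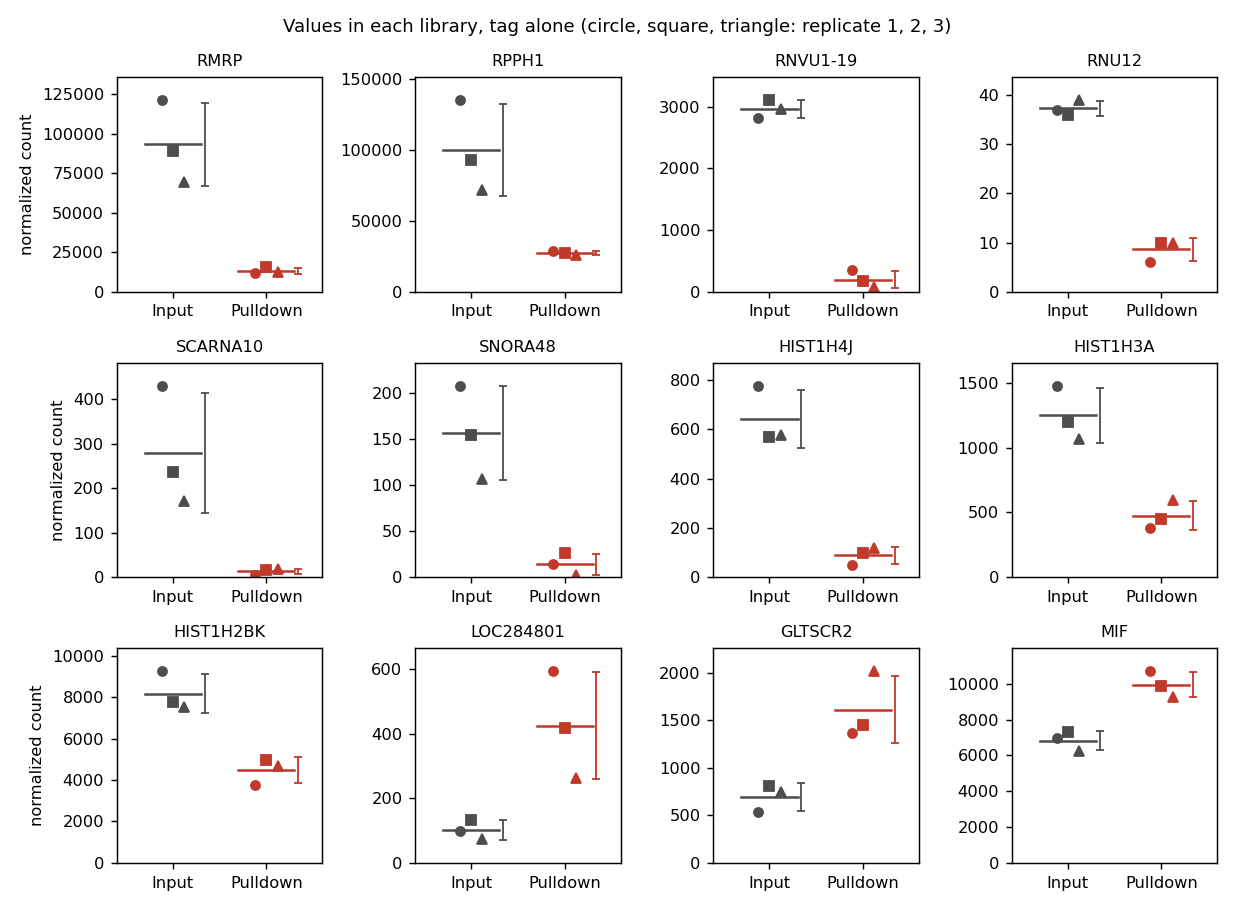
Each panel gives the normalized counts of a gene in the 3 Control Input (grey) and 3 Control Pulldown (red) libraries on a linear axis from 0, with the group mean as a line and the SD as a bar. The 9 genes that fell show no overlap, and LOC284801, GLTSCR2 and MIF lie above the extracts in all 3 purified libraries.

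Histone genes were most of the genes that fell. Of 72 replication-dependent histone genes in the table, 46 were measured and 30 fell (65.2% of those measured, against 0.312% of all genes). In every purified library 41 lay below the extracts (7.23% of all genes did). All 46 fitted values were below 0, from -2.89 to -0.04, with a median of -1.03. The count of 30 was 9 in the fit with all 12 libraries, 19 on FPKM and 1 with no filter or with no trend in the prior variance, while the median was -1.03 in each of these. The median relative to Input was -1.30, -0.76 and -0.92 in Control Pulldown 1, 2 and 3. Together the histone genes held 1.31% ± 0.142 of the normalized counts in extracts and 0.749% ± 0.0894 in purified RNA (exact permutation p = 0.10).

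The families of the nucleosome differed in size of change. Histone H4, which pairs with H3 in the core tetramer, had the lowest median, -1.86, with 8 of 8 genes lower. H2A had a median of -1.06 (7 of 13 lower), H3 of -0.98 (5 of 8, or 3 without Control Input 1 or Control Pulldown 1) and H2B of -0.87 (10 of 13). Linker histone H1, which binds DNA between nucleosomes, had a median of -0.31 with 0 of 4 lower. No test of the difference between families was made.

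HIST1H4J had the lowest value of the histones, with 776, 569 and 576 in Input and 52, 98 and 119 in Pulldown (log2 fold change -2.89, SE 0.25, adjusted p = 2.9e-04). HIST1H4D followed, with 5288, 3555 and 3297 against 430, 649 and 806 (-2.70, SE 0.21). HIST1H4H had 1840, 1526 and 1493 against 407, 508 and 472 (-1.81, SE 0.12, adjusted p = 1.8e-05), with the smallest p of the histone genes. HIST4H4, the H4 gene outside the large clusters, had the smallest fall of the family, at -1.09 (adjusted p = 0.0459), and its call ended without any one of Control Input 1 or 2 or Control Pulldown 1 or 3.

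Outside H4, HIST1H2BF had 570, 493 and 430 against 109, 168 and 154 (-1.80, SE 0.17, adjusted p = 3.8e-04), and HIST1H3A 1477, 1199 and 1066 against 378, 449 and 596 (-1.41, SE 0.16). HIST1H2BK, an abundant H2B gene, had 9249, 7748 and 7507 against 3766, 4960 and 4690 (-0.87, SE 0.12). These values show that the size of the fall differed several-fold among genes whose libraries were all separated. In the H1 family, HIST1H1C had 17523, 16825 and 14818 in Input against 12873, 13865 and 13115 in Pulldown, a log2 fold change of -0.30 (adjusted p = 0.39). Histone genes of a family share much coding sequence, and how the authors' counting treated reads that match several copies is not given in the sources used here, so single members are less certain than the families.

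Histone genes that are transcribed with replication carry recognisable promoters, and 3 are shown because their genes had a large, a middling and a small change, at -2.89, -0.87 and -0.30. Each is the 100 bases before the start site in RefSeq, build GRCh38.p14, with capitals marking matches of 4 motifs that are spelled out after the sequences. HIST1H4J is now named H4C11, at chr6:27823992-27824091 on the plus strand, HIST1H2BK is H2BC12, at chr6:27146859-27146958 on the minus strand, and HIST1H1C is H1-2, at chr6:26056471-26056570 on the minus strand.
HIST1H4J: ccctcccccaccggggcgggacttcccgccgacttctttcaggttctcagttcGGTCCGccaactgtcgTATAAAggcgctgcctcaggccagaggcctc
HIST1H2BK: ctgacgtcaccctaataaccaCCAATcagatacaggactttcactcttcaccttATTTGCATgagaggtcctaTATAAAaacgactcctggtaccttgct
HIST1H1C: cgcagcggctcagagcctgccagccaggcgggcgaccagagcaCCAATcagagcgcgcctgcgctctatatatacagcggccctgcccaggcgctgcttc

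A promoter was found for 38 of the 46 measured histone genes. Searching the 250 bases upstream on both strands, TATAAA stood in 26 of 38 (68.4%) against 11.1% of all 27305 promoters. GGTCCG, part of an element of H4 promoters, stood in 6 of 6 H4 promoters against 9.33% of all. ATTTGCAT, the octamer bound by POU factors, stood in 9 of 12 H2A and 5 of 9 H2B promoters against 1.66% of all, and CCAAT in 32 of 38 against 33%. None of these words contains another, and their presence describes the genes without bearing on how their RNA behaved in the purification.

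Histone variants listed as genes whose mRNA ends in a poly(A) tail took other values. Whether an mRNA carried a tail was not measured here. Of 10 such variants measured, 0 passed the test and the median was -0.03 (0.08 after centring on ribosomal protein genes). H2AFZ, the replacement histone H2A.Z, had 11271, 9904 and 9504 in Input and 9156, 9161 and 8870 in Pulldown (log2 fold change -0.17, 95% interval -0.36 to 0.02). H1F0, the linker histone of resting cells, had 0.39 (0.14 to 0.64; adjusted p = 0.40). Of 12 genes for factors that form the histone 3′ end, 0 passed, with a median of 0.05. SLBP, which binds the stem-loop, had -0.11 and SYMPK, a scaffold of the cleavage complex, 0.60 (adjusted p = 0.16).

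**Figure D3:**
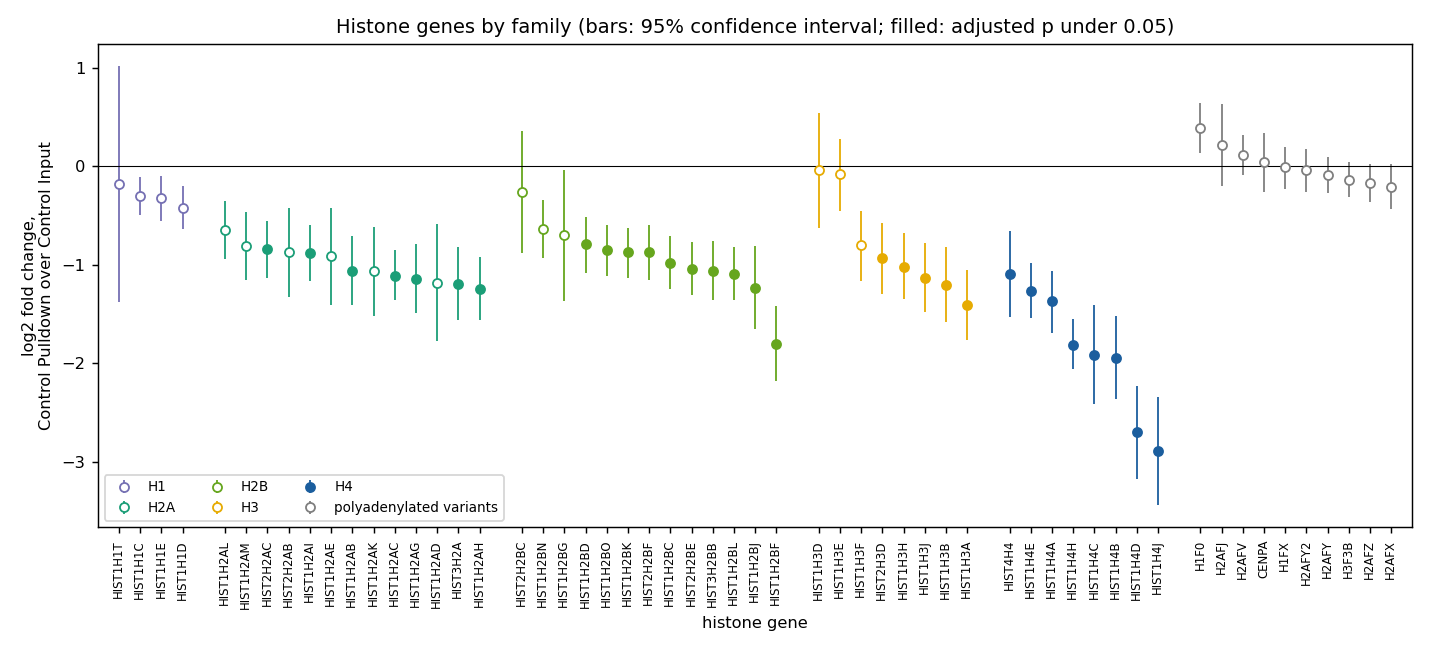
Log2 fold changes of Control Pulldown over Control Input are shown for 46 replication-dependent histone genes by family and for 10 variants with a poly(A) tail, with 95% confidence intervals, filled where the adjusted p is under 0.05. All 8 H4 genes are filled and below -1, the 4 H1 genes and all variants are open.

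PLCG2, a phospholipase of blood cell signalling, had 119123, 98528 and 94636 in Input and 11667, 14676 and 16689 in Pulldown. It had the smallest p of all genes (log2 fold change -2.87, SE 0.13, adjusted p = 9.2e-07). RefSeq places RN7SKP176, a pseudogene of the 7SK small nuclear RNA, within PLCG2, and reads of 7SK RNA or its copies cannot be told apart from reads of PLCG2 in a table by gene. The value is therefore uncertain as a measure of the PLCG2 transcript.

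Exonic length was examined because the classes that fell are short. Among the 13925 genes that are neither histones nor small structured RNAs, the median log2 fold change was 0.68 for 13 genes of up to 200 bases, 0.34 for 2 of 200 to 300, -0.20 for 46 of 300 to 500, -0.05 for 576 of 500 to 1000, -0.04 for 2473 of 1000 to 2000 and for 5501 of 2000 to 4000, 0.02 for 4247 of 4000 to 8000, and 0.09 for 1067 above 8000. From 300 bases up the medians thus rose with length or stayed level, while the 2 shortest bins, of only 13 and 2 genes, lay above all others. None of the genes up to 500 bases was called. Histones of 300 to 500 bases had a median of -1.06 over 31 genes, of which 23 fell. Spearman's rho between length and log2 fold change, given as a description across genes, was 0.53 in 46 histones, -0.43 in 138 small structured RNAs and 0.18 in the other genes. Most histones thus had lower fold changes than the median of other genes of like length, a difference that was not tested, and the medians of the small structured RNAs were -0.28 for 120 genes of up to 200 bases, -1.71 for 6 of 200 to 300 and -0.30 for 11 of 300 to 500.

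**Figure D4:**
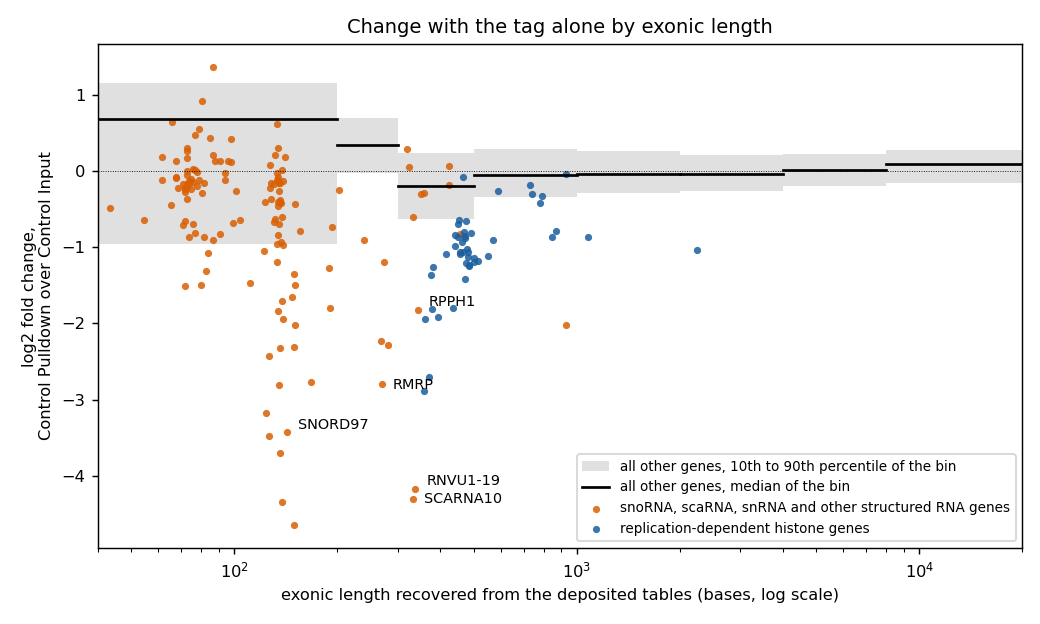
Exonic length recovered from the deposited tables, on a log axis, is plotted against the log2 fold change with the tag alone for histone (blue) and small structured RNA genes (orange), over the median and the 10th to 90th percentile of all other genes in bins of length. The 2 shortest bins of other genes hold 13 and 2 genes; in the bin of 300 to 500 bases the other genes have a median of -0.20 and the histones of -1.06.

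LOC284801 had the largest rise of the 4 genes that rose, with 98, 133 and 73 in Input and 593, 417 and 263 in Pulldown (log2 fold change 2.02, SE 0.27, adjusted p = 0.0058). The groups did not overlap, and the purified libraries spread more than 2-fold among themselves. It lies outside the naming rule, which passes over such identifiers, and was chosen after its values were seen. By gene ID it is MIR663AHG, the host gene of miR-663a. MIR663A itself had 12, 26 and 16 against 37, 43 and 43 (1.21, adjusted p = 0.29), MIR3687 had 17, 28 and 17 against 92, 43 and 43 (1.42, adjusted p = 0.20), and MIR3648 had 30, 42 and 26 against 83, 46 and 51 (0.84, adjusted p = 0.55). Of 12 microRNA entries measured, from 1625 in the table, these 3 had all purified libraries above all extracts (5.93% of all genes did), 2 had all below (7.23% of all genes did) and 0 passed the test. The lowest was MIR5087, at -2.48 with 17, 13 and 10 against 3, 0 and 3, which passed the filter through the extracts alone. Their reads come from total RNA libraries and are not a measure of the mature microRNA.

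The mature forms of 2 of these entries are given to show which short RNAs the entries are named for. They come from RefSeq, build GRCh38.p14, with the seed at bases 2 to 8 in capitals. That of miR-663a is at chr20:26208243-26208264 on the minus strand and that of miR-3648, at the copy MIR3648-2, at chr21:8987026-8987046 on the plus strand. Their seeds differ.
hsa-miR-663a: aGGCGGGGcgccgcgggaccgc
hsa-miR-3648: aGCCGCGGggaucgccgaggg

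GLTSCR2, now NOP53, a nucleolar protein of large ribosomal subunit assembly, rose from 533, 810 and 742 to 1369, 1452 and 2015 (log2 fold change 1.21, SE 0.17, adjusted p = 0.0075). C4orf48, now NICOL1, had 119, 149 and 107 in Input and 238, 215 and 245 in Pulldown (0.90, SE 0.16, adjusted p = 0.029). MIF, a cytokine with tautomerase activity, had 6949, 7289 and 6259 against 10699, 9850 and 9289, a rise of 0.54 (SE 0.09, adjusted p = 0.0216). All 3 had every purified library above every extract, though the rise of MIF was only 1.46-fold. The number of higher genes was 2 without Control Pulldown 1 and 2 without Control Pulldown 2. The calls of C4orf48 and MIF both ended without Control Input 3 or either of these Pulldown libraries, and also without Control Input 1 or Control Pulldown 3 for C4orf48 and without Control Input 2 for MIF.

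A fitted rise beyond 2-fold was found for 22 genes, of which 20 were not called. Among uncalled genes with separated groups and a mean of 100 or more in Pulldown, which the naming rule asks for, the largest after TNIP2 were C19orf81 and NUPR1. C19orf81 had 84, 89 and 68 against 146, 139 and 157 (log2 fold change 0.87, adjusted p = 0.0579), and NUPR1, a stress-induced chromatin protein, had 0.85 (adjusted p = 0.34). TNIP2 had 278, 304 and 272 in Input and 1472, 309 and 391 in Pulldown. Its log2 fold change was 0.98 with a standard error of 0.42 (adjusted p = 0.68), and 0.29 without Control Pulldown 1, the one purified library that stood high.

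Transcripts of the ribosome and mitochondria lay slightly below the extracts without any call. The 49 large subunit and 32 small subunit ribosomal protein genes had medians of -0.14 and -0.16 (-0.03 and -0.06 under quantile normalization), and the 79 respiratory chain genes -0.18 (-0.07 after centring on ribosomal protein genes), with 28 of them below in every purified library (35.4%, against 7.23% of all genes). RPL34, of the large subunit, had 7374, 6860 and 6312 against 3755, 4875 and 5432 (-0.56, adjusted p = 0.15), while RPL29 had 12913, 13849 and 14637 against 19389, 20439 and 17025 (0.46, adjusted p = 0.0864) and passed under 6 of the alternatives. Members of the same ribosomal subunit thus lay on both sides of the extract. NDUFB6 and NDUFC2, subunits of complex I, had -0.50 and -0.57 (adjusted p = 0.11 and 0.10).

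Long non-coding RNAs that stay in the nucleus had a median of 0.17 over 12 genes with 0 called, which was 0.08 without Control Input 1 and 0.28 after centring on ribosomal protein genes. NEAT1, the scaffold of paraspeckles, had 325, 526 and 454 against 636, 694 and 682 (0.65, adjusted p = 0.20), and MALAT1, of nuclear speckles, 0.39 (adjusted p = 0.69) with overlapping groups. The 41 NF-kB pathway genes had a median of 0.03, 32 immediate early genes -0.04, 21 cytosolic heat shock genes 0.09, 30 mitosis genes -0.12, 443 numbered zinc finger genes -0.01 and 49 translation factors -0.06. None of these lists had a called member, and centring on ribosomal protein genes turned the medians of the immediate early genes (0.07), the numbered zinc fingers (0.09) and the translation factors (0.04) above 0.

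The TNIP2 fragment purified from its own cells gives the nearest comparison, and its fold changes use none of the tag-alone libraries. Its calls do, since they come from a fit on all 12 libraries in which the spread is pooled. The genes were also chosen on the tag-alone libraries. There, 4138 of the same 14109 genes (29.3%) fell and 4268 (30.3%) rose. With the tag alone, 20 fell and 0 rose in the fit on all 12 libraries. The 44 and 4 given above came from the tag-alone libraries fitted by themselves. Histones had a median of -2.11 with the TNIP2 fragment (40 of 46 lower), scaRNAs of -2.17, H/ACA snoRNAs of -1.08 and other structured RNAs of -4.89. Immediate early genes had 1.04 and mitosis genes 0.97, where the tag alone had -0.04 and -0.12.

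The change with the TNIP2 fragment minus that with the tag alone (the difference of enrichments, fitted in limma on all 12 libraries) was called for 6226 genes (44.1%). Of the 48 genes called with the tag alone it was called for 28, below 0 for 26 and above 0 for 2. Over all genes it was called below 0 for 2976 (21.1%). The 26 include LOC284801, C4orf48 and MIF, which had risen with the tag alone. Those 48 were picked on the tag-alone change, which is part of this difference, so the count is a description. RMRP was -6.36 with the TNIP2 fragment (difference -3.57, SE 0.46, adjusted p = 3.4e-05) and RPPH1 -5.89 (difference -4.07, SE 0.53). HIST1H4J, SCARNA10 and SNORA12 had differences of -0.11, 0.11 and 0.61 that did not pass, with SE of 0.47, 0.66 and 0.97, which leaves them imprecise.

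SNORA63 went the other way, at -2.32 with the tag alone and 1.29 with the TNIP2 fragment (difference 3.61, SE 0.44, adjusted p = 2.4e-05). The genes that rose with the tag alone also diverged. LOC284801 was -3.28 with the TNIP2 fragment (difference -5.30, SE 0.57, adjusted p = 8.7e-06), C4orf48 -2.56 and MIF -1.89, whereas GLTSCR2 was 1.01 (difference -0.20, SE 0.40, adjusted p = 0.71). MIR663A and MIR3687, at 1.21 and 1.42 with the tag alone, were -3.10 and -3.17 with the TNIP2 fragment.

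**Figure D5:**
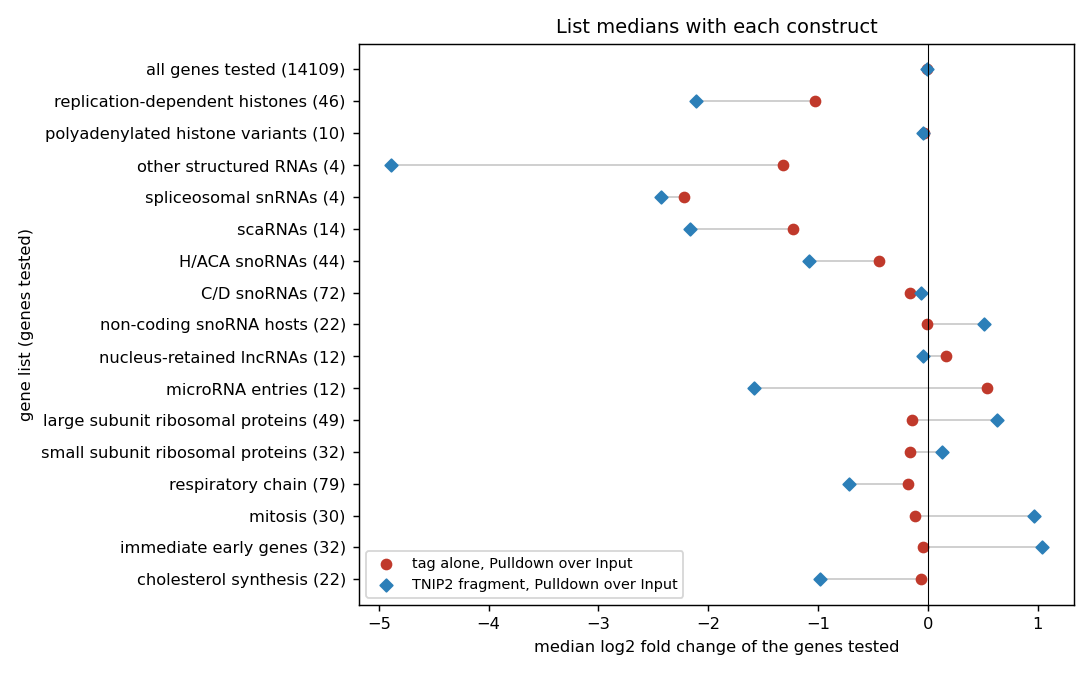
Median log2 fold changes of Pulldown over Input are set side by side for the tag alone (red circles) and the TNIP2 fragment (blue diamonds) for 16 gene lists and all genes tested. Histones stand at -1.03 and -2.11, other structured RNAs at -1.32 and -4.89, and immediate early genes at -0.04 and 1.04.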

How the data were processed

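RNA of 12 HEK293T libraries was sequenced after depletion of ribosomal RNA, and 6 libraries form this comparison. Per the submitters' processing notes, TopHat2 2.0.14, DESeq2 1.6.3 and build hg19 were used; which read counter was used, and whether by strand, is not given in the sources used here. Deposited by the authors were normalized counts, whole numbers that serve here as a score and not as raw counts, and FPKM by gene. Library columns were matched by their letters, and the TNIP2 columns by elimination. Whole reads, depth and exonic length were recovered from steps in the deposited FPKM.

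The log2(normalized count + 1) of genes reaching 10 in at least 3 of 6 libraries was tested in limma 3.58.1 (R 4.3.3; lmFit, eBayes with trend, 4 residual degrees of freedom, two-sided, Benjamini-Hochberg over 14109 genes, called at adjusted p under 0.05). The pseudocount understates changes of low genes. The script was tested on simulated data before use. The difference of enrichments and the calls with the TNIP2 fragment came from a limma fit on all 12 libraries.

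Names follow a rule: the 20 lowest and 20 highest called genes with separated groups and a mean of 100 or more in the higher group, then 8 uncalled ones, up to 3 members per list, TNIP2 and the 10 most abundant genes. Other called genes, among them HIST4H4, HIST1H2BK, SNORA52, SNORA63 and LOC284801, and the uncalled BCYRN1, RNU11, SCARNA2, HIST1H1C, SLBP and MIR3648, were chosen after their values were seen. Members and the 36 gene lists were chosen with earlier results of these data known. Of the genes tested, 14028 matched a RefSeq name.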

Additional observations from a re-analysis of the deposited data

Results flagged for a closer look

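The change with the TNIP2 fragment differed from that with the tag alone, by a test of the difference of enrichments in limma, for 28 of the 48 genes called with the tag alone (44.1% of all genes tested). The 48 were picked on the tag-alone change, which is part of this difference, so the count is a description. The values are TNIP2 fragment minus tag alone on the log2 scale.

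For genes that rose with the tag alone it was -5.30 for LOC284801, -3.46 for C4orf48 and -2.43 for MIF. Among structured RNAs it was -4.07 for RPPH1, -3.57 for RMRP and -1.33 for SNORD17, and for PLCG2, whose value is uncertain, it was -1.68.

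Among H4 genes it was -2.43 for HIST4H4, -2.36 for HIST1H4H, -2.22 for HIST1H4A, -2.21 for HIST1H4C, -1.52 for HIST1H4B, -1.48 for HIST1H4E and -1.37 for HIST1H4D. Among H3 genes it was -2.73 for HIST1H3A, -2.55 for HIST1H3H, -2.36 for HIST1H3B, -2.12 for HIST2H3D and -1.72 for HIST1H3J. Among H2A and H2B genes it was -1.79 for HIST1H2BJ, -1.62 for HIST1H2AC, -1.23 for HIST1H2AI, -1.14 for HIST1H2BC, -0.92 for HIST1H2AH, -0.89 for HIST1H2BO and -0.89 for HIST2H2AC.

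It was above 0 for SNORA49, at 1.97, and for SNORA63, at 3.61. SNORA49 had 0 in every Control Pulldown library, so its fitted value depends on the pseudocount. It also passed the filter through the extracts alone, so its difference is a description and not a test result.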

How the results depend on the processing

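Of 44 lower and 4 higher genes, a fit with the replicate number as a block gave 39 and 7, with 41 of 48 calls shared. Deviations from the group mean correlated at 0.076, 0.077 and 0.086 between same-numbered Input and Pulldown libraries. Between differently numbered libraries they correlated at -0.166 to 0.099. With 3 libraries per group and shallow Pulldown libraries, these values cannot settle whether a number marks a pair. The calls lost under the block were RNU12, SCARNA12, SNORD17, HIST1H2BD, HIST1H2BJ, HIST2H3D and C4orf48, and the block changed no other call of the 48. The count of lower genes was 20 with all 12 libraries fitted, 4 with no filter, 5 with no trend and 132 with library weights, and that of higher genes 0, 0, 0 and 91. Higher genes were 11 under quantile normalization, 7 when centred on ribosomal protein genes, which moves the median of all genes to 0.093, and 9 on reads thinned to one depth. Leaving out single libraries gave 31 to 48 lower and 2 to 6 higher genes. The cause was not tested. As shares of summed FPKM, Pulldown minus Input was -5.04 percentage points for RMRP, -3.44 for RPPH1, -0.176 for PLCG2, -1.83 for histones, 2.46 for ribosomal protein genes, -0.0992 for snoRNAs and scaRNAs and -7.98 for the 10 most abundant genes, since FPKM weights short genes more. EEF2 and RPL4, at -0.05 and -0.12, were 0.65 and 0.62 under quantile normalization. Genes bounded within 2-fold, run under the block, with all 12 libraries and without each library, numbered 11835 to 12449. Differences of enrichments were 7679 under the block and 5984 under quantile normalization, the only alternatives run for them. Control Pulldown holds the fewest reads, which limits low genes.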

Other observations

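The 5 humanin-like MTRNR2L genes measured, chosen after their values were seen, differed between libraries of the same group. MTRNR2L2 had 143, 3628 and 251 normalized counts in Control Input 1, 2 and 3 and 6200, 630 and 308 in Control Pulldown. MTRNR2L8 had 80, 1885 and 124 against 3116, 357 and 169, and MTRNR2L1 had 35, 764 and 58 against 1618, 154 and 78. In MTRNR2L9 and MTRNR2L10, too, Control Input 2 and Control Pulldown 1 held the highest values of their groups. These genes are near copies of the mitochondrial 16S ribosomal RNA gene, so reads cannot be assigned to single members with certainty.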
